A study of Mus musculus with 7 samples.

Results

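Autophagy machinery here means 36 genes of the autophagosome-forming pathway, listed by name, among 37310 genes counted in mouse mammary glands. The mice had intact Tardbp (WT) or Tardbp deleted in luminal epithelial cells (KO). All 36 genes had counts and all 36 passed the filter on low counts that left 17180 genes for testing. They fall into 7 roles: the ULK kinase complex, the class III phosphatidylinositol 3-kinase (PI3K) complex, the lipid scrambling, lipid transfer and PI3P-binding proteins, the conjugation enzymes, the ATG4 proteases, the ATG8 proteins and the cargo receptors. Atg7 was singled out because TDP-43, the RNA-binding protein that Tardbp encodes, has been described as stabilising its mRNA. It had the same tests as the other genes.

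Autophagy encloses cytoplasm, organelles or tagged proteins in a double membrane, the autophagosome, which then fuses with lysosomes. The ULK complex starts the process, the class III PI3K complex makes the lipid PI3P on the growing membrane, WIPI proteins bind that lipid, ATG9 and ATG2 supply phospholipid, and the ATG7, ATG3 and ATG5-ATG12-ATG16L1 enzymes attach ATG8 proteins (the LC3 and GABARAP families) to it. Cargo receptors bind both ubiquitin-tagged cargo and ATG8 proteins and are themselves degraded with the cargo. In the mammary gland, autophagy is best known from involution, when milk-producing cells are removed after weaning, whereas the glands studied here were taken on day 1 of lactation. The paper reports impaired milk lipid secretion and, late in lactation, early involution in KO females.

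RNA was sequenced from mammary glands of C57BL/6 females on day 1 of lactation, 3 WT and 4 KO. The paper's figure legend names mammary glands, while its text also speaks of epithelium and of mammary epithelial cells. WT females carried WAP-Cre with wild-type Tardbp, and KO females carried floxed Tardbp with WAP-Cre, which removes exons 2 and 3, so Cre was present in both groups. The whey acidic protein promoter drives Cre in luminal epithelial cells from mid-pregnancy to lactation, and the other cells of the gland keep Tardbp. Libraries are named WT1 to WT3 and KO1 to KO4 from the replicate numbers in the labels, and the p-values below measure the spread between them. The labels do not say whether each library came from a separate female. The paper's figure legend counts the sequenced groups as 3 WT and 4 KO mice.

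The libraries held 36007737 to 42811337 counted fragments. Levels are given as normalized CPM, the counts scaled to a library of 1000000 after correction for composition. Tardbp itself had 187 ± 32.6 CPM in WT (SD, n = 3) and 188 ± 28.2 in KO (n = 4), with a log2 fold change of 0.01 (edgeR quasi-likelihood test, adjusted p = 0.982), a gene-level count that also includes reads from outside the deleted exons and from cells without Cre. Genes for milk proteins took 28.9% ± 4.41 of counts in WT and 17.1% ± 4.11 in KO. The trimmed mean (TMM) factors that offset this ran from 0.781 to 0.909 in WT and from 1.00 to 1.23 in KO. The summed level of 10 lymphocyte markers, none at 0 in any library, was 40.5 to 58.9 CPM in WT and 430, 72.2, 574 and 129 CPM in KO1 to KO4, and all 10 were higher in KO at an unadjusted p under 0.05. The 8 luminal and milk markers summed to 230130 to 334010 CPM in WT and 82491 to 162390 CPM in KO, a sum made up almost wholly of milk protein genes. Of this list, 5 were lower at the unadjusted limit (Csn1s1, Csn3, Wap, Lalba and Elf5), while the luminal keratin Krt8 was higher (491 and 718 mean CPM in WT and KO, log2 fold change 0.55, every KO library above every WT library) and Krt18 had 361 and 563 with overlapping groups. The summed markers of adipocytes, myoepithelium, fibroblasts, endothelium, myeloid cells and skeletal muscle overlapped between the groups. In RNA from a mixture of cells, fewer cells of a type and less RNA per cell cannot be told apart.

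TDP-43 binds RNA rich in UG repeats, so the mature transcripts of the 36 genes were searched for runs of at least 3 consecutive UG pairs (TGTGTG in the DNA letters of the annotation, read on the transcript's own strand). Such a run was present in 30 of 36 (83.3%), beside 71.5% of the 15113 tested genes with a coding transcript. The median transcript length was 3271 bases in the 36 genes and 2909 in all. Among the genes with an unadjusted p under 0.05 described below, 66.7% of the higher and 75.0% of the lower ones had a run. The median density of UG pairs in runs was 1.64 per kb in the 36 genes and 1.43 per kb in all. Runs of at least 6 pairs were present in 5 of the 36 (13.9%), against 6.33% of all. The longest, 19 pairs, lay in the 3′ UTR of Atg10. The following windows each show 1 run, from Atg7 and from 4 genes picked among those that have a run and an unadjusted p under 0.05. The UG run is in capitals with 6 bases on each side (NCBIM37, 5′ to 3′ on the transcribed strand).
Atg7: gcatgcTGTGTGccaccc
Ulk1: ggtggcTGTGTGTGTGTGTGgctggc
Gabarapl1: cgtgtcTGTGTGTGgagggt
Sqstm1: tgggaaTGTGTGatgcct
Atg9b: gtgggcTGTGTGTGcagccg
The Atg7 run lies at chr6:114809464-114809469 on the plus strand, in the 3′ UTR (exon 19 of 19), and is the one such run in its transcript. The Ulk1 run shown, of 7 pairs, lies at chr5:111213649-111213662 on the minus strand, and is the longest of 4 runs in that 3′ UTR (exon 28 of 28). The Gabarapl1 run lies at chr6:129491957-129491964 (plus strand) and the Sqstm1 run shown at chr11:50014171-50014176 (minus strand), both in the 3′ UTR. Sqstm1 has another run of 3 pairs in its coding sequence (exon 3 of 8). The Atg9b run shown lies in the coding sequence (exon 6 of 14), at chr5:23894184-23894191 on the minus strand, and another of 3 pairs lies in exon 11. Map1lc3b, Atg14 and Atg4c, which also differ below, had no run, and neither did Gabarap, the highest gene per kilobase in WT. A run describes the letters of the transcript, and binding was not measured.

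None of the 36 autophagy genes differed between KO and WT at the limits the study used (an adjusted p under 0.01 with a log2 fold change beyond 1 in either direction) in the edgeR quasi-likelihood test, and neither did any of the 17180 genes (0%). The study names edgeR but not which of its tests, and it reports genes that differed. At these limits edgeR's exact test called 426 of all genes and DESeq2 571, Atg9b among them in both. In the quasi-likelihood test, the shares of the 36 that passed a weaker, unadjusted limit were 16.7% higher and 11.1% lower, beside 10.7% of all genes in each direction. At an unadjusted p under 0.05, 6 genes were higher in KO: the kinases Ulk1 and Ulk2, the PI3K subunit Atg14, the ATG8 genes Map1lc3b and Gabarapl1, and the receptor Sqstm1. The 4 lower genes were the scramblase Atg9b, the conjugation enzyme Atg3, the protease Atg4c and the receptor Nbr1. Log2 fold changes were above 0 for 20 genes and below 0 for 16, with a median of 0.11 beside 0.05 over all genes tested. Adjusted p-values ran from 0.0868 (Atg4c) to 0.980 (Atg4d).

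**Figure D1:**
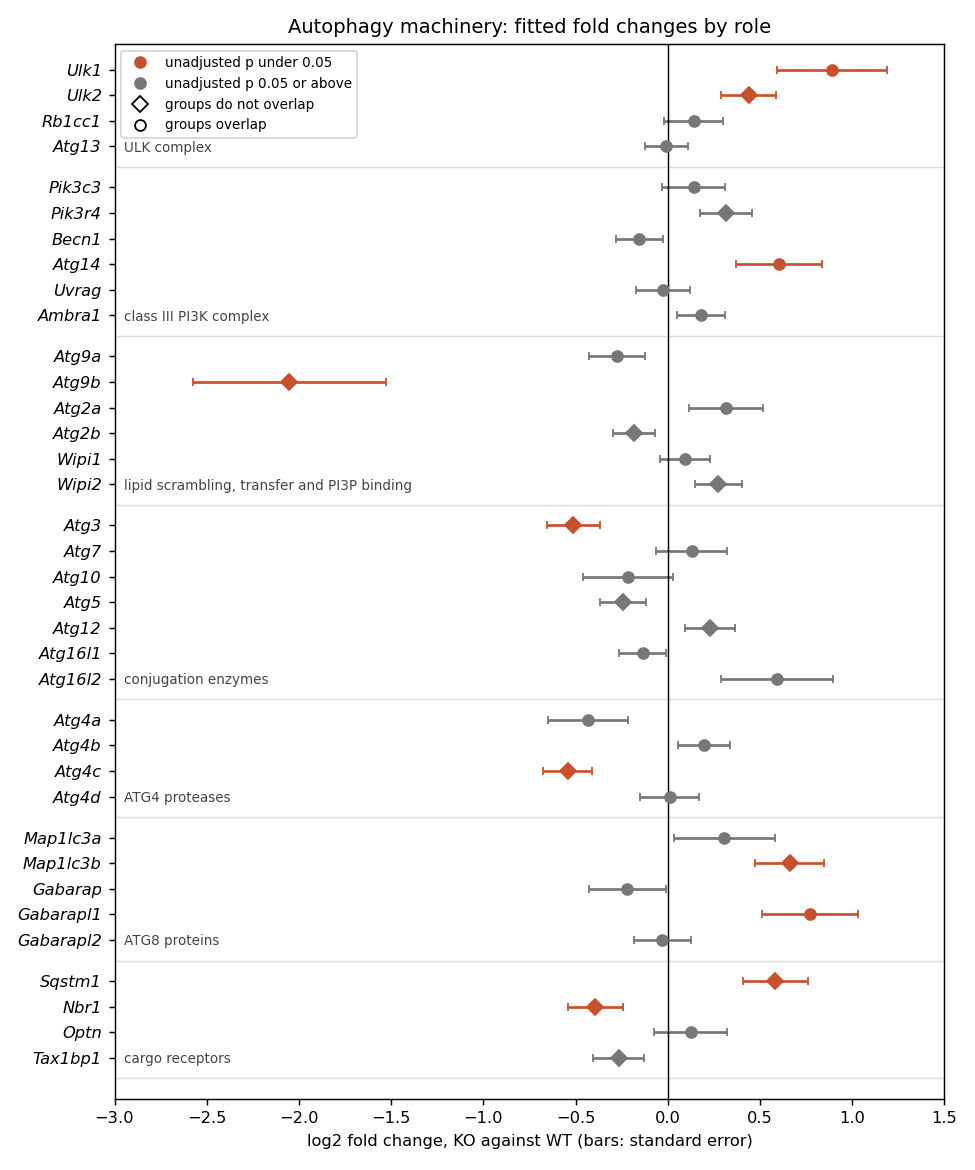
Log2 fold change of KO against WT for the 36 genes by role (points, with bars for the standard error of the edgeR fit, n = 3 WT and 4 KO). Orange marks the 10 genes with an unadjusted p under 0.05 and diamonds the 13 genes whose groups do not overlap, and Atg9b lies farthest from 0 at -2.05.

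Another count uses the libraries directly. For 6 genes every KO library lay above every WT library in normalized CPM (Ulk2, Pik3r4, Wipi2, Atg12, Map1lc3b and Sqstm1), which is 16.7% beside 9.07% of all genes tested. For 7 genes every KO library lay below every WT library (Atg9b, Atg2b, Atg3, Atg5, Atg4c, Nbr1 and Tax1bp1), 19.4% beside 9.62%. The groups overlapped for the other 23. The exact permutation test over the 35 splits of 7 libraries is two-sided and cannot give a p below 0.0286.

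The libraries within a group also differed in a shared order. In all 6 genes that were higher in KO at the unadjusted limit, WT1 was the lowest WT library, WT2 the highest WT library and KO1 the lowest KO library. In all 4 lower genes WT1 was the highest WT library. The milk protein share of counts was 34.0% in WT1, 26.3% in WT2 and 26.4% in WT3, and among the KO libraries it was highest in KO1 (21.8%, against 12.7% to 19.3% in the other 3). The part of these differences between libraries in the gene-level results was not tested.

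**Figure D2:**
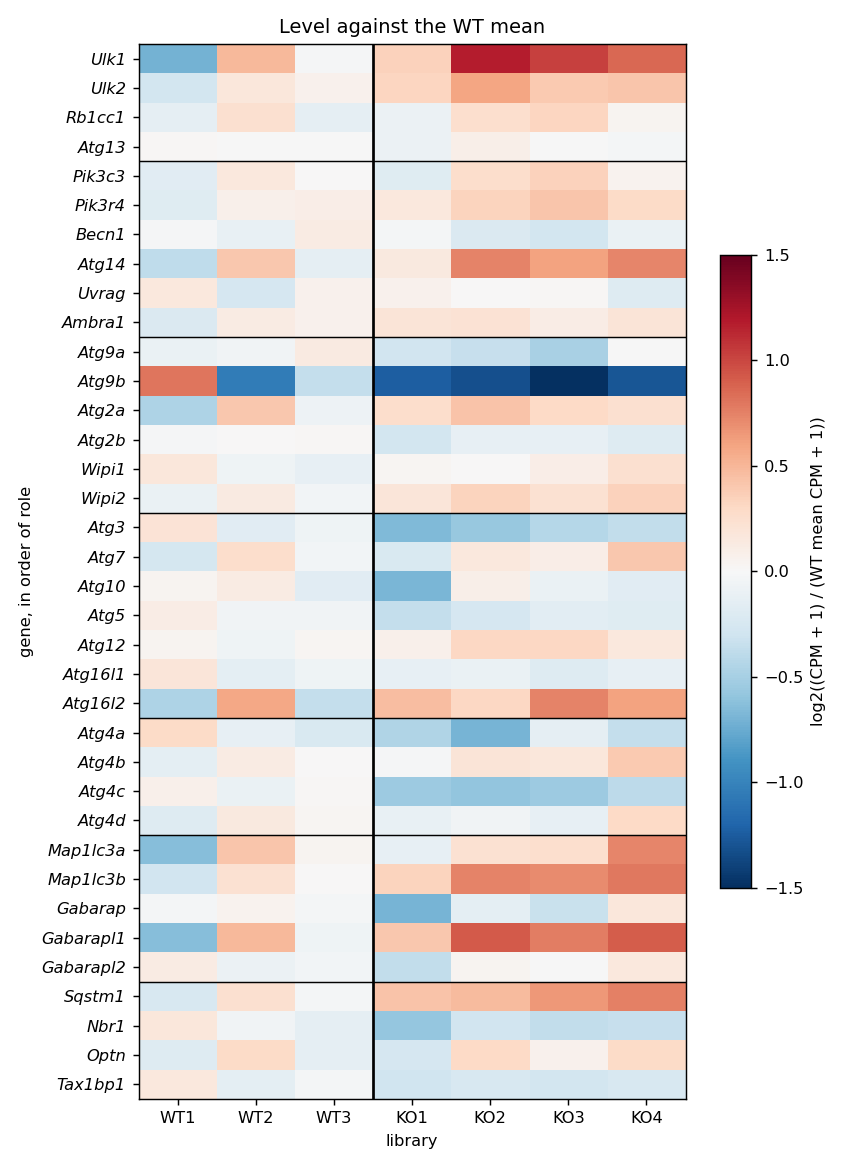
Level of each of the 36 genes in each library against its WT mean, as log2((CPM + 1) / (WT mean CPM + 1)), with rows in order of role, black lines between roles and WT left of the vertical line. WT1 is below and WT2 above the WT mean for Ulk1, Atg14 and Gabarapl1, and the 4 KO libraries are below it for Atg9b, Atg3 and Atg4c.

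Among the ULK complex genes both kinases were higher in KO at the unadjusted limit, and the other 2 subunits did not pass it. Ulk1 (ENSMUSG00000029512.7, chr5:111213507-111239116, minus strand), the kinase that receives nutrient signals, had 66.6, 155 and 108 normalized CPM in WT1 to WT3 and 140, 249, 225 and 201 in KO1 to KO4. KO1 lay below WT2, and the other 3 KO libraries lay above all WT libraries. Its log2 fold change was 0.89 ± 0.300 (SE), with an adjusted p of 0.145 by the edgeR quasi-likelihood test and an exact permutation p of 0.0857. Ulk2 (ENSMUSG00000004798.8, chr11:61589151-61668575, minus strand), the second kinase, had 42.9, 58.4 and 54.5 CPM in WT and 65.3, 78.5, 68.3 and 69.5 in KO. All 4 KO libraries exceeded all 3 WT libraries, by a log2 fold change of 0.44 ± 0.148 (adjusted p = 0.146, edgeR). Atg13, the adaptor of the kinase, had a log2 fold change of -0.01 ± 0.115, and Rb1cc1, the large scaffold FIP200, one of 0.14 ± 0.161, with overlapping groups for both.

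In the class III PI3K complex the largest difference was in Atg14, the subunit that directs the complex to autophagosome formation. Atg14 (ENSMUSG00000037526.6, chr14:48160569-48188109, minus strand) had 15.0, 26.5 and 17.9 CPM in WT and 22.1, 33.9, 30.6 and 33.7 in KO. KO1 lay within the WT range and the other 3 KO libraries above it, and the log2 fold change was 0.60 ± 0.233 (adjusted p = 0.186, edgeR). Pik3r4, the regulatory subunit VPS15, separated the groups with a smaller log2 fold change of 0.32 ± 0.142 (adjusted p = 0.241). The catalytic subunit Pik3c3 had 0.14 ± 0.169, the activator Ambra1 0.18 ± 0.130 and the scaffold Becn1 -0.16 ± 0.128 on the log2 scale, all with overlapping groups. Becn1 shares 43.9% of its exon bases with Cntd1. Uvrag, which replaces ATG14 in the form of the complex used in endosomes, had the highest level per kilobase of exon in this role, and its 36.1, 27.2 and 33.9 CPM in WT spanned the 33.8, 32.4, 32.8 and 28.3 CPM in KO (log2 fold change -0.03 ± 0.145). The unlike values of Atg14 and Uvrag were each set against WT and not against each other.

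The membrane supply and PI3P-binding genes contained the largest difference of the set. Atg9b (ENSMUSG00000038295.8, chr5:23889999-23897961, minus strand), one of the 2 mouse ATG9 scramblases, had 7.41, 1.34 and 2.76 CPM in WT and 1.06, 0.943, 0.696 and 0.987 in KO, from 34 to 41 counts per KO library. Every KO library was below every WT library, but WT2 lay close to KO1 and WT1 stood far above both other WT libraries. The log2 fold change was -2.05 ± 0.525 (adjusted p = 0.0919, edgeR quasi-likelihood test), and without WT1 it was -1.15. Atg9b was the one gene of the 36 called at the study's limits by both other tests run, with an adjusted p of 0.00872 in edgeR's exact test and 0.00404 in DESeq2, against 1.04% of all genes higher and 1.44% lower by the first and 1.69% higher and 1.64% lower by the second. Its exons share 7.45% of their bases with exons of Nos3.

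Atg9a, the other ATG9 scramblase, was much more abundant, with 79.0, 81.8 and 93.1 CPM in WT and 69.2, 66.1, 60.4 and 84.0 in KO. KO4 lay within the WT range and the other 3 below it, with a log2 fold change of -0.28 ± 0.150 (adjusted p = 0.330). Per kilobase of exon its mean level was 20.5 ± 1.80 in WT, against 0.973 ± 0.804 for Atg9b, in normalized CPM per kb. The lipid transfer protein Atg2b had lower levels in every KO library than in any WT library, by a log2 fold change of only -0.18 ± 0.114, and its paralog Atg2a had 0.31 ± 0.20 with overlapping groups. The PI3P effector Wipi2, which recruits ATG16L1, was above WT in every KO library (0.27 ± 0.129 on the log2 scale, adjusted p = 0.260), and Wipi1 had 0.09 ± 0.135.

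Of the conjugation enzymes, Atg3 was lower in KO and Atg7 did not differ beyond its spread. Atg3 (ENSMUSG00000022663.3, chr16:45158898-45188651, plus strand), the E2-like enzyme that passes ATG8 to the membrane lipid, had 64.0, 49.0 and 53.0 CPM in WT and 34.7, 37.0, 41.0 and 42.5 in KO. No KO library reached the WT range, and the log2 fold change was -0.51 ± 0.143 (adjusted p = 0.105, edgeR). It had the highest level per kilobase of exon among the 7 conjugation genes in both groups, 17.5 ± 2.46 in WT and 12.3 ± 1.13 in KO (normalized CPM per kb).

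Atg7 (ENSMUSG00000030314.8, chr6:114593149-114810431, plus strand), the E1-like enzyme that activates both ATG8 and ATG12, had 24.7, 36.05 and 29.1 CPM in WT and 25.3, 33.6, 32.2 and 40.1 in KO. KO1, KO2 and KO3 lay within the WT range and KO4 above it. The mean was 29.96 ± 5.71 CPM in WT and 32.8 ± 6.05 in KO, for a log2 fold change of 0.13 ± 0.192 (adjusted p = 0.741, edgeR quasi-likelihood test; exact permutation p = 0.571). Leaving out each library in turn gave log2 fold changes from 0.0003 to 0.28. Of the Atg7 transcript, 42.4% matches other places in the genome at 97% identity or more over at least 100 bases, so reads from that stretch may not have been counted.

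Atg5 was lower in every KO library than in any WT library (log2 fold change -0.24 ± 0.127), and Atg12, the ubiquitin-like protein that is joined to ATG5, was higher in every KO library (0.23 ± 0.134). Atg10, the E2-like enzyme that joins them, had -0.22 ± 0.245. Atg16l1, which positions the ATG5-ATG12 conjugate on the membrane, had -0.14 ± 0.128, and its low-abundance paralog Atg16l2 had 0.59 ± 0.303 with 5.34 to 12.1 CPM in WT and 9.85 to 13.7 CPM in KO. None of these 5 passed the unadjusted limit.

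Among the ATG4 proteases, which prime new ATG8 proteins and later free them from lipid, Atg4c had the lowest p-value of all 36 genes. Atg4c (ENSMUSG00000028550.8, chr4:98860625-98926478, plus strand) had 26.5, 23.2 and 25.2 CPM in WT and 16.8, 16.2, 16.8 and 18.8 in KO. The groups were well apart and both narrow, with a log2 fold change of -0.54 ± 0.134 (adjusted p = 0.0868, edgeR). Its adjusted p was 0.0476 by the edgeR exact test and 0.00532 by DESeq2, where the fold change is under the study's limit. Atg4b, the most active of the family, had 0.20 ± 0.143, and Atg4a had -0.43 ± 0.218 with overlapping groups, on a transcript of which 96.1% matches another place in the genome. Atg4d, highest per kilobase in this role, had 29.4, 37.6 and 34.7 CPM in WT and 31.2, 32.6, 31.0 and 41.9 in KO. Its mean was 33.9 ± 4.15 CPM in WT and 34.2 ± 5.19 in KO, and 31.1% of its exon bases are shared with Kri1.

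**Figure D3:**
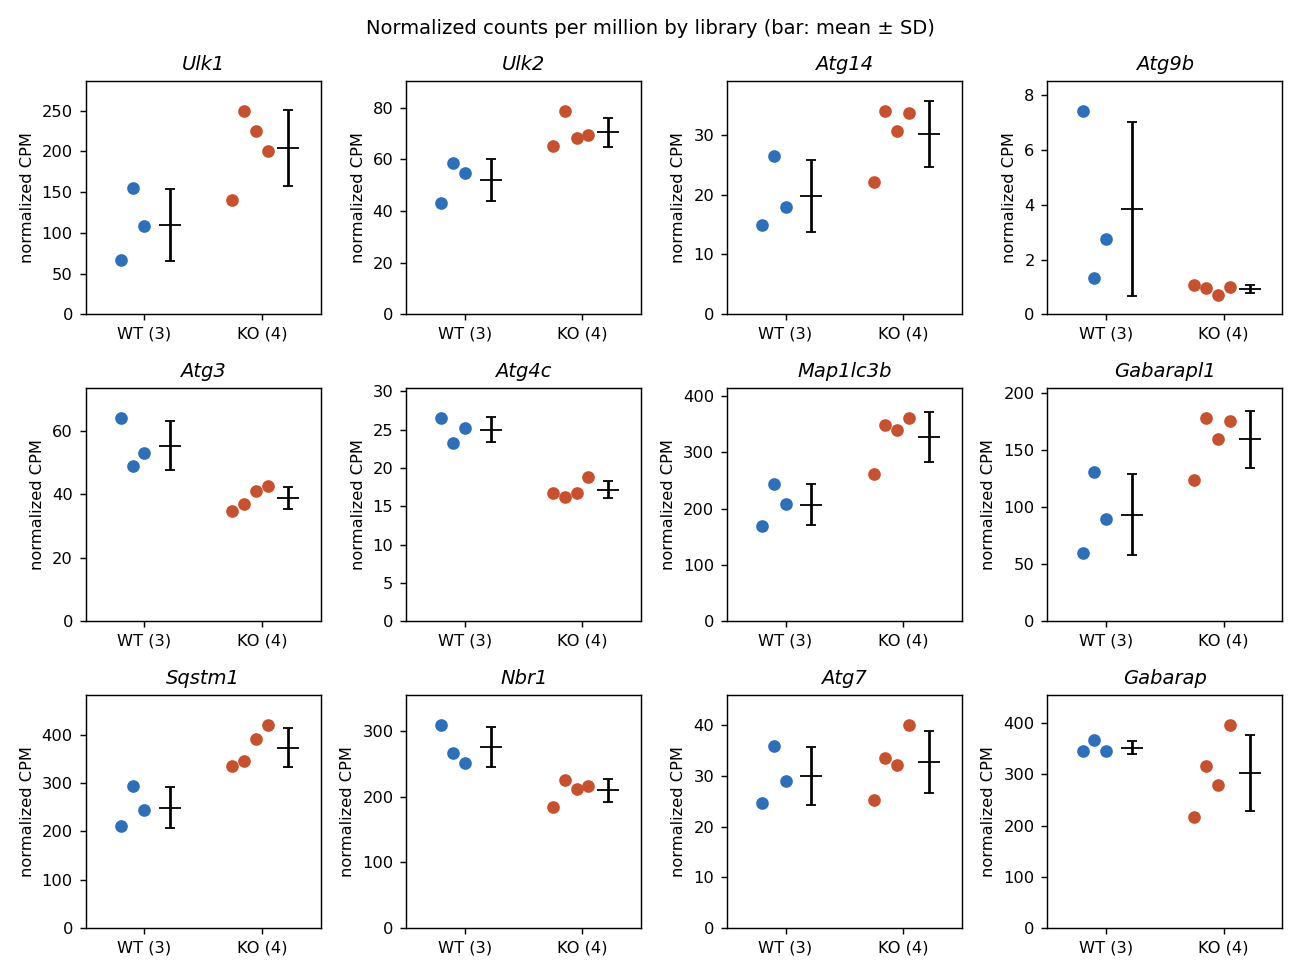
Normalized CPM of 12 genes in each library (points, WT blue and KO orange, with the mean and SD beside them, n = 3 and 4). Ulk2, Map1lc3b and Sqstm1 lie higher and Atg9b, Atg3, Atg4c and Nbr1 lower in every KO library, Ulk1, Atg14 and Gabarapl1 overlap through KO1, and Atg7 and Gabarap overlap more broadly.

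The ATG8 proteins included the most abundant messages of the set. In WT, per kilobase of exon, Gabarap stood highest at 191 ± 6.77 normalized CPM per kb, followed by Map1lc3b at 121 ± 21.6 and Map1lc3a at 78.3 ± 27.2, and the last of these did not differ beyond its spread from the receptor Sqstm1 at 74.2 ± 12.4. In KO, Map1lc3b was at 191 ± 26.0 and Gabarap at 164 ± 40.7, which overlap within their SDs. Gabarapl1 stood at 52.8 ± 20.1 in WT and 90.1 ± 14.1 in KO, and Gabarapl2 at 19.1 ± 1.505 and 18.7 ± 2.86.

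Map1lc3b (ENSMUSG00000031812.9, chr8:124114368-124121947, plus strand), the LC3 whose lipid-bound form marks autophagosomes, had 169, 243 and 209 CPM in WT and 262, 348, 339 and 360 in KO. Every KO library was above every WT library, by a log2 fold change of 0.66 ± 0.188 (adjusted p = 0.109, edgeR). Gabarapl1 (ENSMUSG00000030161.6, chr6:129483218-129492349, plus strand) had 59.7, 130 and 89.4 CPM in WT and 124, 178, 159 and 176 in KO. KO1 lay just under WT2, and the log2 fold change was 0.77 ± 0.261 (adjusted p = 0.146). Gabarap had 345, 367 and 346 CPM in WT and 217, 317, 280 and 397 in KO, so that 3 KO libraries lay below the narrow WT range and KO4 above it (log2 fold change -0.22 ± 0.209, adjusted p = 0.593). Map1lc3a had 0.31 ± 0.275 and Gabarapl2 -0.03 ± 0.155 on the log2 scale, both with overlapping groups.

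Because between-library scaling cancels within a library, the makeup of the ATG8 messages was also taken as each gene's share of their summed level per kilobase. Map1lc3b made up 25.3%, 26.4% and 26.6% in WT and 35.8%, 34.6%, 35.9% and 31.1% in KO. Gabarap made up 47.9%, 37.1% and 40.8% in WT and 27.6%, 29.3%, 27.5% and 31.8% in KO. Every KO library thus had a larger Map1lc3b share and a smaller Gabarap share than any WT library. Gabarapl1 took 11.2% ± 2.55 in WT and 16.1% ± 1.03 in KO with no overlap, and the shares of Map1lc3a (16.6% ± 3.41 and 17.1% ± 1.53) and Gabarapl2 (4.23% ± 1.00 and 3.34% ± 0.132) overlapped. Shares within a role add up to the whole, so a rise in the share of any gene lowers those of the others. The separated shares are therefore not independent results. These shares were computed after the fold changes were known and carry no test. Near-identical copies elsewhere in the genome match 39.5% of the Map1lc3b transcript and 55.2% of the Gabarapl2 transcript, so their levels per kilobase may be too low in both groups.

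The cargo receptors divided in direction. Sqstm1 (ENSMUSG00000015837.9, chr11:50012868-50024329, minus strand), which encodes p62, had 211, 293 and 243 CPM in WT and 334, 346, 392 and 420 in KO. All KO libraries were above all WT libraries, by a log2 fold change of 0.58 ± 0.176 (adjusted p = 0.123, edgeR). Nbr1 (ENSMUSG00000017119.12, chr11:101413463-101443265, plus strand), a receptor of similar domain structure that binds p62, had 309, 266 and 251 CPM in WT and 185, 226, 212 and 216 in KO. It was below WT in every KO library, by a log2 fold change of -0.39 ± 0.150 (adjusted p = 0.180). Tax1bp1, another ubiquitin-binding receptor, was below WT in every KO library (-0.27 ± 0.139, adjusted p = 0.309), and Optn, which takes part in the clearance of mitochondria and bacteria, had 0.12 ± 0.199 with overlapping groups.

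As a share of the 4 receptors' summed level per kilobase, Sqstm1 was 41.1%, 52.9% and 48.6% in WT and 62.2%, 59.6%, 63.8% and 64.7% in KO. Nbr1 was 29.7%, 23.6% and 24.8% in WT and 16.9%, 19.2%, 17.0% and 16.4% in KO. Neither share overlapped between the groups, nor did that of Tax1bp1, at 23.0% ± 3.36 in WT and 16.8% ± 1.18 in KO. In the ULK complex the Ulk1 share of 40.5% ± 8.64 in WT and 53.7% ± 4.78 in KO overlapped, with 48.7% in WT2 and 46.8% in KO1, and the Rb1cc1 share did not, at 7.29% ± 0.80 in WT and 5.63% ± 0.425 in KO. The level of Rb1cc1 was not lower, with means of 53.8 CPM in WT and 59.3 in KO and overlapping groups. A smaller share in a role is thus not by itself a lower level. Sqstm1 exons share 17.3% of their bases with another annotated gene, 3010026O09Rik.

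**Figure D4:**
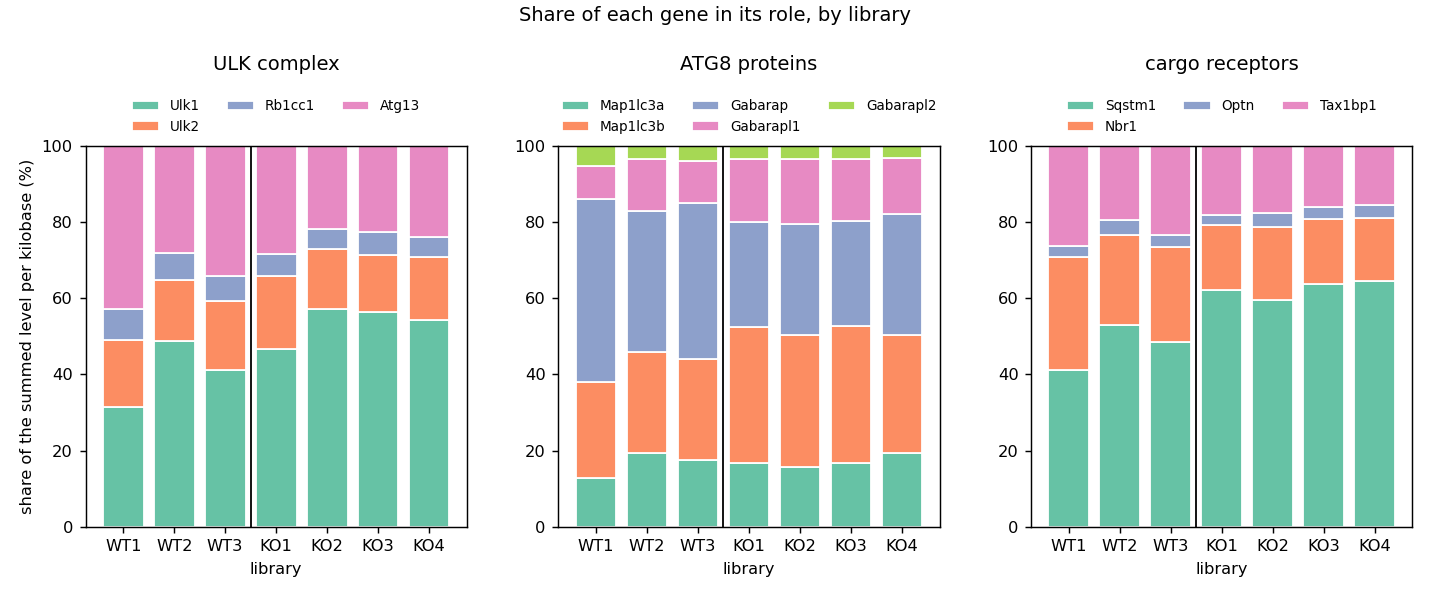
Share (%) of each gene in the summed normalized CPM per kilobase of its role, by library, for the ULK complex, the ATG8 proteins and the cargo receptors (stacked bars, black line between WT and KO). Map1lc3b and Sqstm1 take a larger share and Gabarap and Nbr1 a smaller one in every KO library than in any WT library.

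The fold changes depend on how libraries with unequal milk protein content are scaled. With library totals alone in place of TMM factors, the median log2 fold change over all genes was 0.42 instead of 0.05, and that of the 36 genes was 0.48 instead of 0.11. The 36 genes then split into 31 above 0 and 5 below 0 (20 and 16 with TMM factors), and 17 were higher and 1 lower (Atg9b) at an unadjusted p under 0.05, beside 33.8% of all genes in either direction. Gabarap went from -0.22 to 0.14, Atg9a from -0.28 to 0.08 and Uvrag from -0.03 to 0.36. Relative to the median of all genes, Gabarap lay 0.28 and Atg9a 0.34 below it. Ulk1, Ulk2, Atg14, Map1lc3b, Gabarapl1 and Sqstm1 were higher, and Atg9b, Atg3, Atg4c and Nbr1 lower, under both scalings, although Nbr1 came to -0.01 with library totals.

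**Figure D5:**
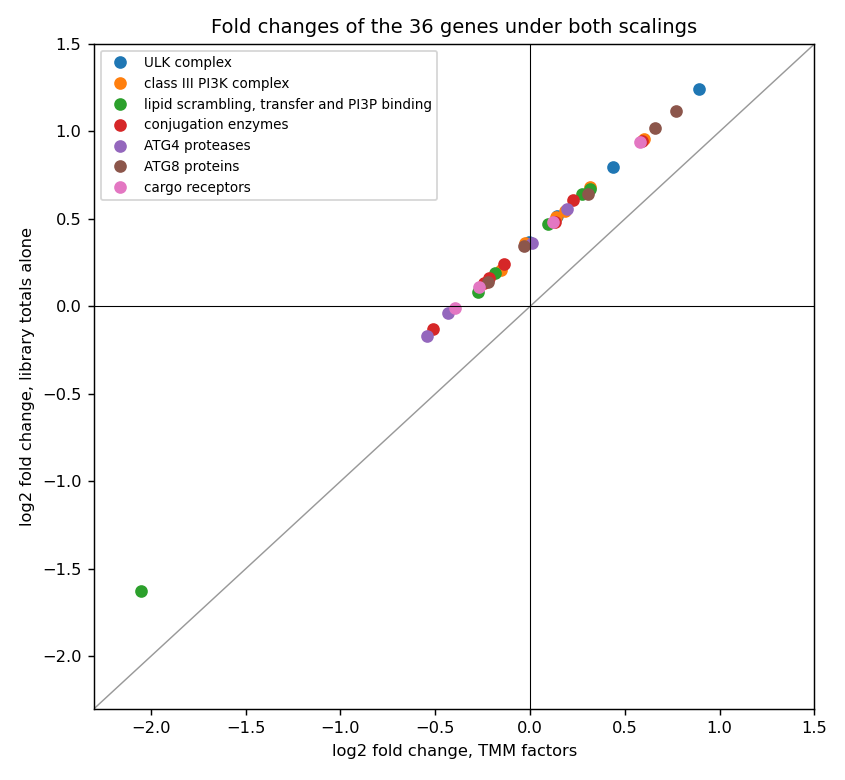
Log2 fold change of the 36 genes with TMM factors (x axis) and with library totals alone (y axis), coloured by role, with the line of equal values in grey. All points lie above the line, and genes to the upper left of the 0 lines change sign, Gabarap, Atg9a and Uvrag among them.

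The rest of the pathway was described with 40 other autophagy genes, all of them tested. This list and its parts were chosen with earlier results of these data known, so their shares beside all genes carry no test. At an unadjusted p under 0.05, 7 were higher (17.5%, beside 10.7% of all genes) and 5 lower (12.5%, beside 10.7%), with a median log2 fold change of 0.05 and adjusted p-values from 0.0858 to 0.999. The groups did not overlap for 3 higher and 6 lower genes, beside 9.07% and 9.62% of all genes. The lowest p among the lower genes belonged to Tmem41b, an endoplasmic reticulum scramblase needed for autophagosome formation, with 87.7, 33.8 and 58.0 CPM in WT and 21.4, 26.0, 27.9 and 30.9 in KO. No KO library reached the WT range, WT1 was the highest library, and the log2 fold change was -1.17 ± 0.284 (adjusted p = 0.0858, edgeR). Tmem41b passed the study's limits in edgeR's exact test, with an adjusted p of 0.00497, and in DESeq2, with 0.00560.

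Retreg1, a receptor for autophagy of the endoplasmic reticulum, had 310, 152 and 166 CPM in WT and 119, 119, 95.1 and 117 in KO, a log2 fold change of -0.89 ± 0.249 (adjusted p = 0.105). Its groups did not overlap. Of the 7 genes for fusion with lysosomes, none was higher and 2 were lower at the unadjusted limit (28.6%, beside 10.7% of all genes), namely the SNARE genes Ykt6 (-0.50 ± 0.164) and Snap29 (-0.41 ± 0.155), and Vmp1, which works with TMEM41B, was also lower (-0.39 ± 0.163). Rubcn, which inhibits the UVRAG form of the PI3K complex, was higher in every KO library (0.45 ± 0.141, adjusted p = 0.130).

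Among 11 regulators, 4 were higher (36.4%, beside 10.7% of all genes) and none lower at the unadjusted limit. Sesn3, a sestrin that restrains mTORC1, had 23.9, 44.3 and 23.6 CPM in WT and 52.0, 56.8, 83.5 and 58.7 in KO, a log2 fold change of 1.04 ± 0.267 (adjusted p = 0.0931). Trp53inp1, a p53-induced protein that binds ATG8 proteins, had 34.8, 72.4 and 43.4 CPM in WT and 85.0, 85.1, 230 and 130 in KO (1.399 ± 0.402, adjusted p = 0.110). Both lay above WT in every KO library, and both passed the study's limits by DESeq2 (adjusted p = 0.00772 and 0.00893) but not by the edgeR exact test. Sesn1 (0.55 ± 0.222) and the transcription factor Foxo1 (0.41 ± 0.178) overlapped between groups. The lysosome and autophagy transcription factors Tfeb (0.17 ± 0.226), Tfe3 (-0.12 ± 0.115) and Mitf (-0.27 ± 0.251) and the second FOXO gene, Foxo3 (0.24 ± 0.178), had adjusted p-values of 0.479 to 0.702 (edgeR).

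TFEB, TFE3 and MITF bind E-boxes that contain CACGTG, and FOXO factors bind GTAAACA. In RefSeq windows of 300 bases around transcription starts (250 before and 50 after, GRCm38.p6), available for 30 of the 36 genes in 34 windows, CACGTG was present in 4 windows (11.8%), beside 7.15% of all 32851 windows, and reads the same on both strands. GTAAACA or its reverse complement TGTTTAC was present in 0 windows, beside 3.65% of all. The 4 genes were Atg3, Atg5, Atg7 and Atg14, which take in both an enzyme that was lower in KO and a PI3K subunit that was higher. The matches of Atg3 and Atg7 are shown with the motif in capitals, on the plus strand.
Atg3, first match: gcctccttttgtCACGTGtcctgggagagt
Atg3, second match: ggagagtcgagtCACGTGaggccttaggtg
Atg7: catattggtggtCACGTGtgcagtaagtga
They lie at chr16:45158723-45158752, chr16:45158746-45158775 and chr6:114670952-114670981 in GRCm38.p6. A match describes the letters of the window, and no binding was measured.

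Leaving out KO1 and KO3, the libraries with the most lymphocyte marker RNA, an alternative chosen after seeing the data, gave 6 higher and 3 lower genes at the unadjusted limit, with 12.5% of all genes passing it in either direction (21.4% with all libraries). The 6 higher genes were the same, and Nbr1 no longer passed. The log2 fold change of Gabarap was then 0.02. Leaving out each library in turn, Ulk1, Map1lc3b and Sqstm1 stayed higher and Atg9b, Atg3 and Atg4c stayed lower at that limit every time, whereas Ulk2, Atg14 and Nbr1 were lost without WT1. Atg14 was also lost without WT3, KO2, KO3 or KO4, Gabarapl1 without WT3, and Nbr1 without KO1 or KO3. By the code that ends each label (L1 to L5, read here as the sequencing lane), lane 4 alone held both genotypes (WT2, KO3 and KO4). Within it the 6 higher genes had log2 differences from 0.24 (Ulk2) to 0.52 (Map1lc3b) and the 4 lower genes from -0.66 (Atg9b) to -0.23 (Atg3), the same directions as in all libraries, with 1 WT library and so no test.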

How the data were processed

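The authors mapped paired-end reads to NCBIM37 with STAR (version 2.4.2a in the methods, 2.5.2a in the submitters' notes) and deposited raw counts per gene from featureCounts 1.4.6-p5. No option for strand or for reads with several matches is named, and featureCounts by default leaves out the latter. Gene names came from GENCODE vM1, whose coordinates equalled those deposited for 37310 of 37310 genes. Mitochondrial (37) and ribosomal (572) genes and genes without 5 counts in 4 of 7 libraries were removed, leaving 17180. KO was compared with WT by the edgeR 4.0.16 quasi-likelihood test with TMM factors (R 4.3.3), without covariates, and p-values were Benjamini-Hochberg adjusted over all genes tested. CPM was computed after TMM scaling, and errors reflect the spread over libraries. The edgeR exact test, DESeq2 1.42.0, other scalings and filters, leaving out each library, lane 4 alone and a replicate block were alternatives. Scripts were tested on simulated data. For each gene the longest coding transcript was searched for UG runs, and 68 of 68 runs read from the genome matched (those on one chromosome were left out). Copies were sought with blastn 2.17.0. Values in every library are given for genes with an unadjusted p under 0.05 or called by an alternative, Atg7, and the highest gene per kilobase in each role. The genes and lists were chosen with earlier results of these data known.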

Additional observations from a re-analysis of the deposited data

Results flagged for a closer look

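Among 76 groups of 4 KO libraries, 1 for each of the 36 genes and the 40 other autophagy genes, 7 had a library far from the other 3 by Dixon's test, which flags about 1 in 20 groups by chance. Atg4d was high in KO4, at 41.9 CPM with the others at 31.0 to 32.6. Vamp8, a SNARE of autophagosome fusion, was also high in KO4, at 254 CPM with the nearest at 167. KO1 was low in 4 genes. It had 43.4 CPM of the PI3P-binding Wdr45 (nearest 64.2), 38.4 CPM of the tethering gene Epg5 (nearest 45.0), 57.8 CPM of the mitophagy receptor Bnip3l (nearest 87.3) and 17.5 CPM of the mitophagy receptor Fundc1 (nearest 21.8). Retreg1 was low in KO3, at 95.1 CPM with the nearest at 117. KO1 was also the lowest KO library for the 6 genes that were higher in KO at the unadjusted limit.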

How the results depend on the processing

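With library totals alone, 18 of the 36 genes passed the unadjusted limit (10 with TMM factors), the median log2 fold change was 0.48, and Uvrag (0.36), Atg9a (0.0795) and Gabarap (0.14) reversed; the all-gene median was 0.42. The edgeR exact test and DESeq2 each called 1 gene at the study's limits (Atg9b), and an adjusted p under 0.1 with no fold limit gave 2 (Atg9b and Atg4c), beside 5.43% of all genes. Leaving out 1 library at a time gave 7 to 13 genes at the unadjusted limit (12.3% to 25.4% of all genes), 13 to 23 with separated groups (23 without WT2, where 37.2% of all genes separated, against 18.7% with all libraries), medians of 0.01 to 0.15, Atg7 values of 0.0003 to 0.28, 0 called, and 5 to 13 of the 40 other genes (5 without WT1, 7 without WT3). Uvrag reversed without WT1 (0.0596), WT3 (0.0091) or KO4 (0.0025), and lay between -0.14 and 0.0596. Atg4d reversed without WT1 (-0.08) or KO4 (-0.12), and lay between -0.12 and 0.0915. Atg9b lay between -2.46 and -1.15 (without WT1).

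In lane 4 alone (1 WT and 2 KO libraries, no test), 25 genes had separated groups beside 64.1% of all genes, the median was -0.00937, and Atg7 (-0.00557), Uvrag (0.17) and Atg4d (-0.0623) reversed. Without KO1 and KO3, 20 genes had separated groups beside 31.5% of all, 7 of the 40 other genes passed the unadjusted limit, and Gabarap reversed (0.0186). DESeq2 size factors and the DESeq2 test both put Atg4d just below 0 (-0.0019 and -0.0022). Deviations from the group mean correlated at 0.35, 0.09 and -0.06 between WT and KO libraries of the same replicate number. Between libraries of different numbers the correlations ran from -0.39 to 0.25. Whether the replicate numbers pair the libraries was not tested. A replicate block gave 6 higher and 4 lower genes (24.6% of all genes, against 21.4% without it), with Atg9a in place of Nbr1, and reversed Uvrag (0.0366) and Atg4d (-0.10). The filters on counts and keeping mitochondrial and ribosomal genes changed no gene at the unadjusted limit. Where not stated, the cause of a change was not tested.

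The quasi-likelihood test called 0 of all genes at the study's limits, with or without WT1, where the exact test called 426 and DESeq2 571, so 0 called does not show that levels were equal. Among the 36 genes depth was lowest for Atg9b, with 34 to 41 counts in each KO library.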

Other observations

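Genes for the clearance of mitochondria were also measured. Of Bnip3, Bnip3l, Fundc1 and Pink1, none passed the unadjusted limit, with log2 fold changes of -0.04 ± 0.204, 0.27 ± 0.189, -0.18 ± 0.142 and 0.17 ± 0.221. Calcoco1, a receptor for endoplasmic reticulum and Golgi membranes, had 48.5, 116 and 66.0 CPM in WT and 113, 141, 131 and 130 in KO, a log2 fold change of 0.74 ± 0.273 (adjusted p = 0.168, edgeR). KO1 lay just below WT2 and the other KO libraries above all WT libraries. Wdr45, a PI3P-binding relative of the WIPI genes, had 26.9, 55.2 and 29.4 CPM in WT and 43.4, 64.2, 64.8 and 66.0 in KO, a log2 fold change of 0.68 ± 0.272 (adjusted p = 0.196), again with KO1 below WT2.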
